A study of Mus musculus with 4 samples.

Results

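The genes described are Nr4a1, Nr4a2, Rxra and Rxrb, a pair of NR4A orphan nuclear receptors and the retinoid X receptors they can dimerise with. They were taken by annotated gene symbol, 4 of 8236 genes on the arrays, and every probe set carrying 1 of these symbols was used, which gave 6 probe sets. Expression had been measured in c17.2 cells, an immortalised mouse neural stem cell line, kept in proliferating culture. The Nurr1-labelled group held clone 42 and clone 48, which carry a stably transfected Nurr1 (the product of Nr4a2), and the control group held puroB and puroD, which carry the empty vector, a puromycin control. The labels match clone 42 with puroB and clone 48 with puroD for similar proliferation rates. The series' design text names clone 42 in both pairs, with c48 in brackets in the second, and the descriptions of the 4 samples, which put clone 48 with puroD, were followed. Each line is 1 clone on 1 array, so the transfected gene and the history of a clone cannot be told apart, and the p-values measure the spread between these 4 arrays alone. Labels and files used here do not name the promoter that drove the transfected Nurr1.

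NR4A receptors are immediate early genes: serum, growth factors, depolarisation and cyclic AMP induce them within a short time, in large part through the factor CREB at cyclic AMP response elements (CREs). They bind no known classical hormone, and their activity follows largely from how much of them a cell makes. Nurr1 and Nur77, the product of Nr4a1, bind DNA alone at an element called the NBRE or as heterodimers with RXR, which lets RXR ligands act on NR4A target genes. Nurr1 is required for midbrain dopaminergic neurons, while RXR proteins are the common partners of retinoic acid, thyroid hormone, vitamin D and other receptors.

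The promoter windows of Nr4a1 and Nr4a2 are shown because the signals of both genes were lower in the Nurr1-labelled clone of each pair, as described below. The windows run from 250 bases before to 50 after the start of the gene in RefSeq, assembly GRCm38.p6, and all 4 genes had an entry there. Nr4a1 lies at chr15:101266596-101266895 (plus strand) and Nr4a2 at chr2:57123954-57124253 (minus strand). Capitals mark the CRE half-site CGTCA or its reverse complement TGACG.
Nr4a1: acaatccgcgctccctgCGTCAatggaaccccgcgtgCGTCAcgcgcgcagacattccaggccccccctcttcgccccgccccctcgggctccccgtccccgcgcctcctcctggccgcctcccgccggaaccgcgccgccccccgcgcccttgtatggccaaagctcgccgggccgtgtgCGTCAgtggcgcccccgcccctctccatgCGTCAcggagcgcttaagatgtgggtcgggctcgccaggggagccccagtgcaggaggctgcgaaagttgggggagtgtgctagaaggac
Nr4a2: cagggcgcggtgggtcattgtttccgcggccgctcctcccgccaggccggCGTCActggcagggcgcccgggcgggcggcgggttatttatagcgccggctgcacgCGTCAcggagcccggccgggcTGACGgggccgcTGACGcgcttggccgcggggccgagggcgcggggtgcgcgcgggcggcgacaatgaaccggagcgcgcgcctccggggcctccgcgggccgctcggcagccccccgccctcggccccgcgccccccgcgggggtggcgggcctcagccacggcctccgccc
Both windows held 4 half-sites, at 233, 213, 69 and 40 bases before the start in Nr4a1 and at 200, 144, 123 and 111 in Nr4a2. The window of Nr4a3, the remaining NR4A gene, also held 4. Of 32851 such windows, 20.8% held at least 1 and 0.231% at least 4. Both windows shown are rich in G and C (72.3% and 81.7%), and among the 3148 windows of at least 70% the share with at least 4 was 0.476%. In Nr4a1 each half-site was part of the longer TGCGTCA, and that window was the only 1 of 32851 to hold 4 of these. The motifs, the half-site included, were chosen after the windows had been read, so these counts and shares are a description and test nothing. Nr4a2 had no TGCGTCA, and neither window had the full CRE, TGACGTCA, which 1.79% of windows held on either strand. The longest run common to both windows, GCGTCACGGAGC, has 12 bases and lay 41 bases before the start of Nr4a1 and 145 before that of Nr4a2. It was found in the windows of 5 genes. The 2 windows of Rxra held no half-site, and of the 2 windows of Rxrb 1 held a single match. The NBRE, AAAGGTCA, is present in 1.51% of windows; it was in neither NR4A window shown and in no Rxrb window, and once in an Rxra window, 50 bases before the start. These matches describe letters in a window and show no binding.

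**Figure D1:**
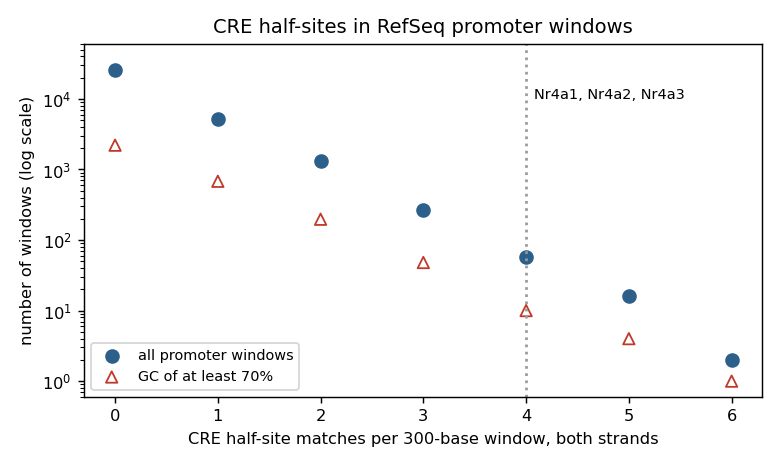
Number of RefSeq promoter windows (vertical axis, log scale) with each number of CRE half-site matches on both strands (horizontal axis), for all 32851 windows (filled circles) and for the 3148 with a GC content of at least 70% (triangles). The windows of Nr4a1, Nr4a2 and Nr4a3 stand at 4 matches (dotted line), which 0.231% of all windows reach or pass. The motif was chosen after the windows had been read.

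The 4 arrays had been scaled alike, with median signals between 125.6 (clone 48) and 160.1 (puroB). Background can be read from 15 control probe sets for transcripts not spiked in, whose highest signals ran from 39.1 to 62.6 per array. The 3' to 5' ratio of the actin control, which rises as RNA degrades, was 1.68 in clone 42 and 1.51 in puroB, and 2.41 in clone 48 and 2.0 in puroD. Of 10 progenitor markers 6 to 8 lay above these controls on an array, among them nestin (Nes, 3027 to 3716), Hes1 and Notch1, while Pax6, Hes5 and Prom1 did not exceed 61.0. Their summed signal was 5000 and 5006 in the Nurr1-labelled clones against 6035 and 6181 in the controls, and most of that difference was the lipid-binding Fabp7 of radial glia (564 and 157 against 1291 and 1537; -2.24, limma adjusted p = 0.0503). Of 8 neuron markers 3 lay above the controls not spiked in on each Nurr1-labelled array, and 4 on each vector control array. Their sum was 6665 and 5400 against 3203 and 3205, carried by Tubb3 (5683 and 4628 against 2701 in both), Nefl and Nefm. Nefl had 504 and 365 against 98.0 and 186, and Nefm 380 and 349 against 110 and 129. These 3 were the tested ones and were higher in both pairs, where 21.7% of all tested probe sets were. Their median difference was 1.6. Each had an unadjusted p under 0.05 (limma), against 7.38% of all, and the lowest adjusted p was 0.0853 (limma). Map2 reached 197.9 at most and did not pass the filter for testing. Snap25 (4.30 at most) and Syp (21.3) were at background. The part of these markers in the values below was not tested. Of 5 oligodendrocyte markers 3 or 4 were above background, and their sum (5553 and 7940 against 5311 and 3920) was mostly Sox10 (5114 and 7660 against 4745 and 3434); Mbp ran the other way (75.4 and 96.2 against 175.7 and 149.0), the list's median was -0.42, and Mog reached 7.59. Astrocyte markers summed to 4395 and 3404 against 5179 and 5278, with 2 to 4 of 5 above background. Most of each sum was Gja1 (2701 and 2644 against 4283 and 4530). S100b had opposite signs in the pairs, with 1599 in clone 42 and 735.3 in puroB, but 509 in clone 48 and 625.2 in puroD. Of 7 microglia and macrophage markers 3 were above it on every array, Csf1r at 154.6 to 232.7 and Cx3cr1 at 138.3 to 259.4 among them, and Aif1, Itgam, Adgre1 and Ptprc did not exceed 23.2; the sums were 606.2 and 508.2 against 604.7 and 548.2. Fibroblast markers summed to 20870 and 13560 against 8620 and 16020, with 5 or 6 of 8 above background. Most of each sum was S100a4 (12540 and 8201 against 6377 and 12490). Of the 4 tested, 3 had opposite signs in the pairs. Col3a1 was higher in both (5015 and 4006 against 1287 and 1749, a difference of 1.58, limma adjusted p = 0.0853).

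Nr4a2, the gene named by the labels, did not stand higher in the clones labelled as carrying it. At probe set 92248_at its signal in the first pair was 320 for clone 42 against 485 for puroB, and in the second 206 for clone 48 against 254 for puroD. The order was puroB, clone 42, puroD and clone 48, so the groups overlapped and both clones of the first pair exceeded both of the second. At probe set 92249_g_at the signal was 188 in clone 42 and 372 in puroB, and 113 in clone 48 and 213 in puroD. Here both Nurr1-labelled clones lay under both controls, but clone 42 and puroD differed by 0.18 on the log2 scale, less than the 0.80 between the controls or the 0.73 between clone 42 and clone 48. The mean log2 level was 8.0 ± 0.45 (SD, n = 2 clones) against 8.45 ± 0.66 at 92248_at, and 7.19 ± 0.52 against 8.14 ± 0.57 at 92249_g_at. The fitted difference was -0.45 ± 0.30 (SE, 95% interval -1.10 to 0.20; limma, Benjamini-Hochberg adjusted p = 0.871) and -0.95 ± 0.34 (-1.68 to -0.21; limma adjusted p = 0.453, unadjusted 0.0151). Neither passed the threshold of 0.05 over all tested probe sets. Fits that left out 1 clone, here and below, dropped the pairing, so their values also carry the difference between the pairs. Without puroB the value was 0.016 at 92248_at, where the second pair itself gave -0.30, and -0.55 at 92249_g_at. Without clone 48 it was -0.13 and -0.58. Without puroD it was -0.92 and -1.35, and without clone 42 it was -0.77 and -1.31.

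Both Nr4a2 probe sets were designed on the same GenBank record, yet they gave different sizes of difference in the same RNA, -0.60 and -0.98 for clone 42 against puroB and -0.30 and -0.91 for clone 48 against puroD. The sources used here do not state which bases of the transcript they cover, or whether the transfected sequence contains them. If their target lies outside the transfected sequence, they report the cell's own Nr4a2 alone and check no label. The transfected lines are therefore called Nurr1-labelled, and every direction given here is one between labels.

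Nr4a1, which encodes Nur77 and shares its DNA element with Nurr1, was lower in the Nurr1-labelled clone of each pair. Its signal at 102371_at, the single probe set of the gene, was 393 in clone 42 and 655 in puroB, and 245 in clone 48 and 477 in puroD. The groups did not overlap. The smaller ratio, 1.67-fold, was that of puroB over clone 42, and puroD stood 1.95-fold above clone 48. The mean log2 level was 8.28 ± 0.48 (SD, n = 2 clones) against 9.13 ± 0.32, a difference of -0.85 ± 0.29 (SE, 95% interval -1.47 to -0.23; limma adjusted p = 0.371, unadjusted 0.0104), which did not pass. The gap between puroD and clone 42, neighbours in the order, was 0.28 on the log2 scale, smaller than the 0.68 between the Nurr1-labelled clones and the 0.46 between the controls. Without clone 48 the difference was -0.51, and it was -0.62 without puroB, -1.08 without puroD and -1.19 without clone 42. Nr4a3 has no probe set under its symbol in the annotation and was not analysed here.

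**Figure D2:**
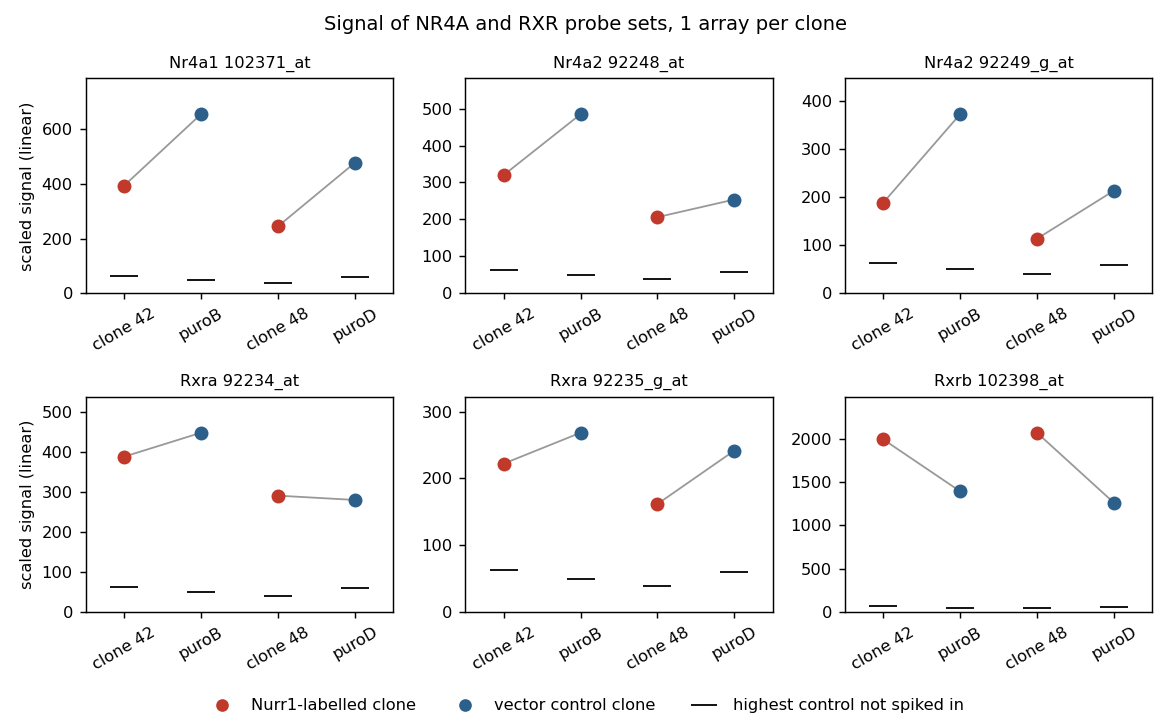
Scaled signal (vertical axes, linear and starting at 0) of each probe set in the 4 clones, with red for Nurr1-labelled and blue for vector control clones, a line joining each matched pair, and a black bar at the highest control not spiked in on that array. All 3 NR4A probe sets are lower in the Nurr1-labelled clone of both pairs, and Rxrb is higher in both; every signal lies above the control bar, the lowest being 113 for Nr4a2 92249_g_at in clone 48.

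Rxra, the RXR isotype whose loss has the most severe effects in mouse embryos, gave no settled direction. At 92234_at its signal was 388 in clone 42 and 448 in puroB, and 291 in clone 48 and 280 in puroD. The puroD and clone 48 signals were nearly equal, the order was puroB, clone 42, clone 48 and puroD, and the groups overlapped. The difference was -0.08 ± 0.29 (SE, 95% interval -0.71 to 0.55, limma adjusted p = 0.995). Its sign turned when arrays were scaled to their median (0.09) or quantile normalised (0.035). It also turned without clone 48 (0.13) or without puroB (0.26), in fits that dropped the pairing. The pair left whole gave -0.21 without clone 48 and 0.05 without puroB. Without clone 42 or puroD the fitted difference was -0.28 and -0.42. At 92235_g_at the signal was 222 in clone 42 and 269 in puroB, and 162 in clone 48 and 242 in puroD. Both Nurr1-labelled clones lay under both controls there, by 0.12 on the log2 scale between the nearest clones, against 0.46 between clone 42 and clone 48. The difference was -0.43 ± 0.33 (SE, 95% interval -1.14 to 0.29; limma adjusted p = 0.899), and -0.20 without clone 48 or -0.66 without clone 42. In the second pair the 2 probe sets of the gene had opposite signs, 0.05 and -0.58.

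Rxrb, a widely expressed RXR isotype, was higher in the Nurr1-labelled clone of each pair. Its signal at 102398_at was 1998 in clone 42 and 1396 in puroB, and 2074 in clone 48 and 1262 in puroD. The clones within a group were close: clone 42 and clone 48 differed by 0.053 and the controls by 0.15 on the log2 scale, while the nearest clones of the groups, clone 42 and puroB, differed by 0.52. A gap between groups larger than both differences within a group was found at this probe set alone among the 6, and at 8.07% of all tested probe sets; the measure was chosen after the values were seen. The mean log2 level was 10.99 ± 0.038 (SD, n = 2 clones) against 10.37 ± 0.10, a difference of 0.62 ± 0.31 (SE, 95% interval -0.04 to 1.28; limma adjusted p = 0.735, unadjusted 0.0650). It did not pass, and with 1 residual degree of freedom its error rests mostly on the spread pooled over all probe sets. Leaving out any 1 clone gave 0.54 to 0.69. Rxrg, the third isotype, had signals of 6.29 in clone 42, 6.49 in clone 48 and puroD and 10.6 in puroB, all within the level of the controls not spiked in, and was not tested.

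**Figure D3:**
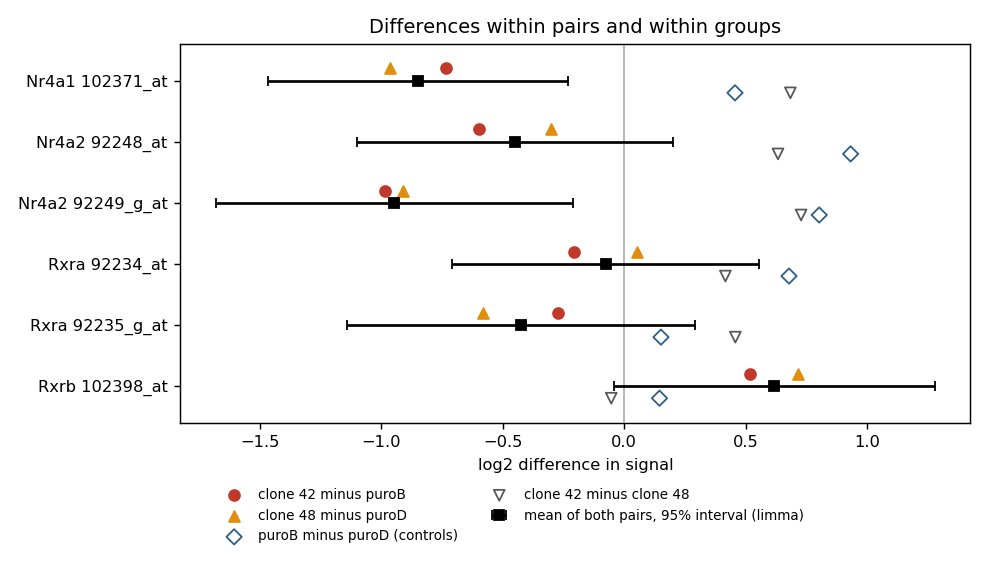
Log2 difference in signal (horizontal axis) at each probe set within the matched pairs (filled circle and triangle), within the groups (open diamond for the controls, open triangle for the Nurr1-labelled clones), and fitted over both pairs with its 95% interval (square and bar). At Nr4a2 92248_at and Rxra 92234_at the open symbols lie farther from 0 than the filled ones, whereas at Rxrb they lie within 0.15 of 0 and the filled ones at 0.52 and 0.72.

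Across the 6 probe sets, 0 had an adjusted p under 0.05 (limma), where 0.109% of the 6419 tested probe sets did, and 2 had an unadjusted p under 0.05, Nr4a1 and Nr4a2 92249_g_at, where 7.38% did. In both pairs 4 were lower in the Nurr1-labelled clone, against 29.7% of all tested, and 1 was higher, against 21.7%. The groups did not overlap at 3 that were lower (17.9% of all) and 1 that was higher (12.8%). These 6 stand for 4 genes, and those of 1 gene share their transcript. None of the 6 differed by 2-fold between clone 42 and puroB, where 8.35% of all did, or between clone 48 and puroD (5.39%), the controls (6.06%) or the Nurr1-labelled clones (10.7%). The lowest array was clone 48 at 4 of the 6 probe sets and the highest was puroB at 5. The share of all tested probe sets with these arrays lowest or highest was not counted, so nothing particular to the 6 can be read from this. Clone 48 also had the lowest median signal and the highest actin ratio of the 4 arrays, and puroB the highest median and the lowest actin ratio; the part of either in these values was not tested. Rxrb ran the other way in clone 48, where it was highest.

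**Figure D4:**
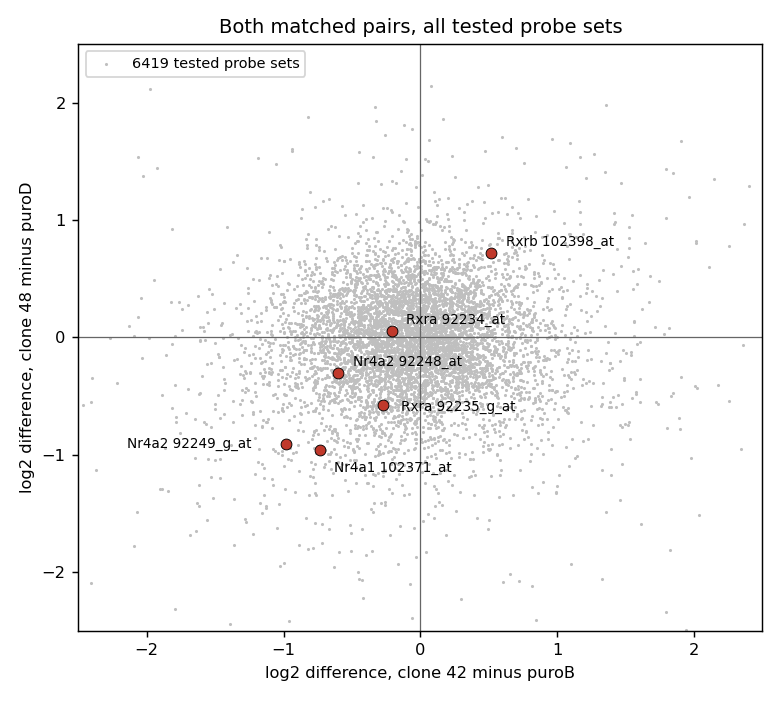
Log2 difference of clone 42 minus puroB (horizontal axis) against clone 48 minus puroD (vertical axis) for 6419 tested probe sets (grey; 31 lie outside the axes) and the 6 NR4A and RXR probe sets (red). Nr4a1 and Nr4a2 lie where both pairs are negative and Rxrb where both are positive, inside the cloud of all probe sets.

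The tested probe sets whose centred log2 signals over the 4 arrays came closest to each gene were named by root mean square distance. For Nr4a1 they belonged to Cnot7, a subunit of the deadenylase complex CCR4-NOT, Acvrl1, a receptor for BMP ligands, and Arih1, a ubiquitin ligase, with distances of 0.060, 0.062 and 0.064 and a median of 0.56 over 5819 candidates. For Nr4a2 (92248_at) they were Nck2, an adaptor protein, at 0.032, Ctnnbip1, an inhibitor of beta-catenin, at 0.034 and Grik5, a kainate receptor subunit, at 0.035. For Rxra (92234_at) they were the phosphatase gene Acp2 (0.019), the chromatin remodeller Smarcad1 (0.021) and the keratin-associated gene Krtap13 (0.032). For Rxrb they were the calpain gene Capn7 (0.038), Reep5, which shapes the endoplasmic reticulum (0.039), and Taldo1, an enzyme of the pentose phosphate pathway (0.043). With 4 arrays many genes share any profile, and 5 of these 12 were named again after quantile normalisation.

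Most genes of receptors that pair with RXR were dim. Of 14 other partners 12 had a probe set and 3 were tested, of which 0 passed in limma and 0 had an unadjusted p under 0.05, with a median difference of 0.18. The median over all tested probe sets was -0.038. The retinoic acid receptor Rara reached 65.4 at most, Rarg 47.2 and the fatty acid receptor Pparg 5.30, all near background. Thra, a thyroid hormone receptor, had 951 in clone 42 and 1484 in puroB, and 1236 in clone 48 and 1114 in puroD, a mean log2 difference of -0.25, and the bile acid receptor gene Nr1h4 had 0.43. Leaving out 1 clone gave -0.45 to -0.039 for Thra, and for Nr1h4 0.074 (without clone 42) to 0.79 (without clone 48). Of 27 other nuclear receptors 8 were tested, 0 passed in limma and the median was also 0.18. For 1 the unadjusted p was under 0.05 (limma), against 7.38% of all tested probe sets. That 1 was Nr2f1, which encodes COUP-TFI, a regulator of neural patterning that can bind RXR. Its signal was 767 in clone 42 and 430 in puroB, and 1308 in clone 48 and 703 in puroD, a difference of 0.86 ± 0.29 (SE; limma adjusted p = 0.368) that was positive in both pairs, though the groups were kept apart only by the 767 of clone 42 and the 703 of puroD. The estrogen-related receptor gene Esrra had -0.56. Without clone 48 these became 0.48 for Nr2f1 and -0.26 for Esrra, and without clone 42 they were 1.25 and -0.85.

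Of 22 coregulator genes 14 were tested, 0 passed in limma and the median was -0.027. The unadjusted p was under 0.05 for 1 (limma), against 7.38% of all tested probe sets. In both pairs 2 were higher and 2 lower, against 21.7% and 29.7% of all. The lower ones were Tbl1x and Hdac3. Tbl1x, a beta-propeller subunit of the NCoR corepressor complex, had 184 in clone 42 and 327 in puroB, and 163 in clone 48 and 254 in puroD (-0.73 ± 0.33 SE, limma adjusted p = 0.644). The histone deacetylase gene Hdac3 had 419 and 749, and 369 and 473 (-0.60 ± 0.29, limma adjusted p = 0.714). Leaving out 1 clone gave -0.91 to -0.55 for Tbl1x and -0.93 to -0.27 (without puroB) for Hdac3. The acetyltransferase gene Kat2a had 0.49, but -0.23 without puroB. Of 20 genes of retinoid metabolism and response 2 were tested, with a median of -0.052; 0 passed in limma and 0 had an unadjusted p under 0.05. Rdh5, a retinol dehydrogenase, had 200 in clone 42 and 65.3 in puroB, but 54.2 in clone 48 and 164 in puroD, differences of 1.61 and -1.59. Both lower signals lie near the highest control not spiked in, and the mean of 0.0095 hides opposite pairs. The related enzyme gene Rdh11 had -0.11, and 0.056 with arrays scaled to their median.

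Of 17 genes reported as Nurr1 targets, 13 had a probe set and 4 were tested. Of these 0 passed in limma and the median was 0.20. For 1 the unadjusted p was under 0.05 (limma), against 7.38% of all tested probe sets. The genes of dopamine handling did not pass the filter: tyrosine hydroxylase (Th) reached 126 at most, Gch1 101, Ddc 78.8 and the dopamine transporter Slc6a3 44.2. The dopamine receptor Drd2 (133 at most) and the GDNF receptor Ret (7.69) did not pass it either. Bdnf, a neurotrophin, had 628 in clone 42 and 204 in puroB, and 189 in clone 48 and 160 in puroD, so that clone 42 stood alone (0.93 ± 0.37 SE; limma adjusted p = 0.519); without it the difference was 0.068. Nrp1, a semaphorin receptor, had -0.35, and -0.10 without clone 42.

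Regulators of NR4A transcription and other immediate early genes had no common direction. Of 15 genes of cyclic AMP, CREB and MEF2 signalling 8 were tested, 0 passed in limma and 0 had an unadjusted p under 0.05. In 6 of the 8 the pairs had opposite signs, and the median was -0.022. Over all tested probe sets, the pairs did not share a sign in 48.7%. The gene Crem, a CREB relative, had 0.50 and the MEF2 gene Mef2d 0.39. Of 20 immediate early genes 15 were tested and 0 passed in limma. Of the 15, 5 were higher and 5 lower in both pairs, against 21.7% and 29.7% of all tested probe sets. An unadjusted p under 0.05 was found for 4 (Atf3, Jun, Ier3 and Fos), against 7.38% of all, and the median was -0.034. Fos had 2666 in clone 42 and 837 in puroB, but 281 in clone 48 and 228 in puroD, so the groups overlapped (limma adjusted p = 0.386). Its pair differences were 1.67 and 0.30 on the log2 scale, and clone 42 and clone 48 differed by 3.24. Atf3, a stress-induced factor, had 6479 in clone 42 and 2799 in puroB, and 1966 in clone 48 and 767 in puroD (1.28 ± 0.31 SE; limma adjusted p = 0.134), and passed when arrays were scaled to their median (0.0281) or when all 4 arrays had to exceed the filter (0.0147). Jun, a subunit of the factor AP-1, had 3078 and 2041, and 2299 and 703 (1.15 ± 0.34, limma adjusted p = 0.259). It passed under the same stricter filter (limma adjusted p = 0.0439). Scaling to the median raised the number of all probe sets that passed from 7 to 51. It also moved the median difference of all from -0.038 to 0.13. The stricter filter raised the number that passed too. Ier3, an immediate early gene of survival signalling, had 1206 and 2322, and 820 and 1688 (-0.99 ± 0.31; limma adjusted p = 0.275), and like Nr4a1 it was lower in both Nurr1-labelled clones than in both controls. Atf3 and Jun also differed between the controls, by 1.87 and 1.54 on the log2 scale, with puroB the higher. Without puroD the differences were 0.35 for Atf3 and 0.38 for Jun (limma adjusted p = 0.9997 for both), and without clone 42 they were 0.42 and 0.94. Without the replicate block the adjusted p was 0.9998 for Atf3 (limma). Leaving out 1 clone gave -1.27 to -0.72 for Ier3.

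**Figure D5:**
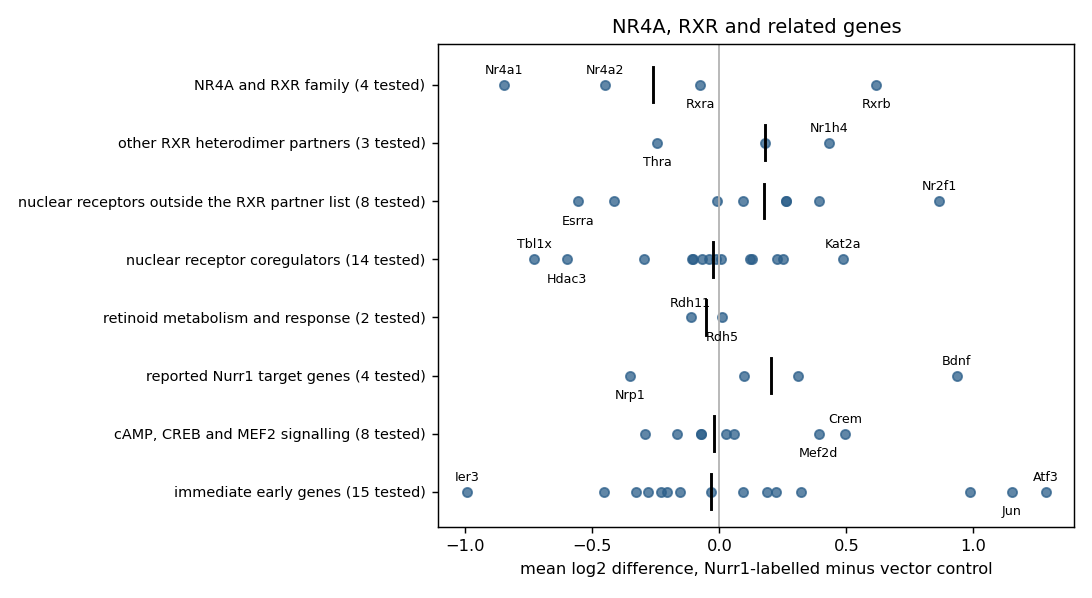
Mean log2 difference, Nurr1-labelled minus vector control (horizontal axis), of the brightest tested probe set of each gene (points) by gene list (rows), with the list median as a black bar; the genes of the largest difference are labelled. Nr4a1 at -0.85 and Rxrb at 0.62 lie on opposite sides, and the immediate early genes run from Ier3 at -0.99 to Atf3 at 1.28.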

How the data were processed

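The authors deposited 1 linear signal intensity per probe set and array, over 12469 rows, made with MAS5 per the submitters' processing notes; the sources used here state no version and no scaling target. The deposited arrays had 2% trimmed means of 500.4 to 500.5. Each was rescaled to 500, signals under the 30th percentile (40.3) were set to it, and log2 was taken. Probe sets over the median of all values (145.05) on at least 2 of 4 arrays were tested, without 66 array controls, which left 6419; all 6 probe sets of the 4 genes were among them. The number of arrays limits the precision.

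The fit used limma 3.58.1 under R 4.3.3: group and matched pair entered lmFit, the pair as a block, and eBayes ran with a trend on signal (1 residual and 13.1 prior degrees of freedom), followed by Benjamini-Hochberg adjustment over all tested probe sets. The pairing is that of the labels; as a check, the arrays of a pair deviated together from the means of their groups (r = 0.192 across probe sets, which are not independent). Tested on simulated data, the fit recovered most of the planted changes, which were large, but in several runs it made more false calls than the threshold allows, most where the prior degrees of freedom were overestimated; 1 residual degree of freedom determines them poorly. Symbols came from the platform annotation (10814 of 12403 gene probe sets had 1, 396 several, 1193 none); those of all 6 probe sets matched RefSeq through their Entrez identifiers.

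Genes and lists were chosen with earlier results of these data known, and motifs after the promoter windows had been read. A list gene enters with its brightest tested probe set, and list genes of the largest absolute mean difference are named, as are the 3 nearest profiles per gene. Alternatives changed the block, scaling, floor, filter and trend, or left out 1 clone.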

Additional observations from a re-analysis of the deposited data

Results flagged for a closer look

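At Rxra 92234_at the pairs had opposite signs, -0.21 for clone 42 minus puroB and 0.054 for clone 48 minus puroD, so that the difference between the pairs was -0.26. With 1 array per clone this difference was not tested. Of all tested probe sets, 3124 (48.7%) did not have the same sign in both pairs.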

How the results depend on the processing

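No probe set of the 4 genes passed (limma) under any of the 13 alternatives, or the 12 that could be run for Nr4a2 92249_g_at, which a filter on all 4 arrays removes. Signs of Nr4a1, Nr4a2 92249_g_at, Rxra 92235_g_at and Rxrb held throughout. Scaling to the median moved the median of all probe sets from -0.038 to 0.13, so Nr4a1 at -0.68, Nr4a2 at -0.28 and -0.78, Rxra at -0.26 (92235_g_at) and Rxrb at 0.79 are to be read against that shift. Rxra 92234_at was 0.093 there and 0.035 with quantile normalization. Leaving out 1 clone gave -1.19 to -0.51 for Nr4a1, -0.92 to 0.016 and -1.35 to -0.55 for Nr4a2, -0.42 to 0.26 and -0.66 to -0.20 for Rxra, and 0.54 to 0.69 for Rxrb. Those fits had no pair, and the lone clone of a group is taken to vary like the others. Mef2d was -0.0042 without puroD, Kat2a -0.23 to 1.21, Rdh11 -0.37 to 0.15 (0.056 with scaling to the median) and Rdh5 -0.93 to 0.95 without 1 clone. The fit without the replicate block keeps each difference and called 0 of 6419 probe sets (287 at an unadjusted p under 0.05); Nr4a1 had an adjusted p of 1.00 there (limma). The count of 7 over all probe sets became 51 with scaling to the median, 49 with the filter on all 4 arrays, and 0 with quantile normalization (375 unadjusted), no floor (473), a pseudocount of 32 (463) or no filter (560), and 0 to 51 without 1 clone (0 without puroB, 51 without clone 48). The cause was not tested.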
